A study of Mus musculus with 12 samples.

Results

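The genes described are the expressed zinc finger genes named Zfp in mouse dendritic cells grown from bone marrow. Members were probe sets whose only gene symbol was Zfp followed by digits, with 1 probe set per gene, the one of highest mean, and a mean log2 signal of 7 or more over 12 arrays. Zfp36 was left out because its protein belongs to another class of zinc finger. Of 335 such genes among the 22180 genes measured, 197 were members and 138 lay below the level threshold. The family was selected on its lower signal after LPS, so its changes after LPS are given as a description and are no independent evidence of a fall.

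C2H2 zinc finger proteins carry rows of small finger domains, each folded around a zinc ion, and read DNA through the fingers. Many of the mouse Zfp proteins also carry a KRAB domain, which recruits the corepressor TRIM28 and the histone methyltransferase SETDB1 and silences transposable elements and nearby genes. The genes arose by repeated duplication and often lie side by side, so their sequences can be alike and probes may detect more than 1 of them.

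Cells came from mice on a C57BL/6 background, 8 weeks old and labelled male, that were Arc/Arg3.1 -/- (knockout) or Arc/Arg3.1 +/+ (wildtype). The knockout is carried by every cell of the animal, and no other allele is named. Marrow cells were cultured with the growth factor GM-CSF at 20 ng/ml, and semi-adherent cells were harvested after a week. They were given medium alone (untreated) or LPS, a glycolipid of Gram-negative bacteria sensed through Toll-like receptor 4, at 100 ng/ml for 30 min, washed, and kept in medium for 1 h. Each of the 4 groups had 3 Affymetrix whole-transcript arrays. Replicates are titled biological, and no animals are named. Arrays with and without Y-linked signal occurred together in 3 of the groups, so the cultures there came from more than 1 animal. For the untreated wildtype group the source of each culture is not stated, and its spread may be technical.

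The 3 untreated wildtype arrays were more alike than replicates of any other group. Over genes with a mean above 8, the SD of the difference between 2 of them was 0.105 to 0.108, against 0.193 to 0.438 for the 9 pairs of the other groups. Over the Zfp genes it was 0.151 to 0.165, against 0.184 to 0.317. Their mean was therefore counted as 1 sample, and the counts with 12 separate samples are given beside it. The median signal of 78 small RNA genes was 9.73 to 9.87 on LPS replicates 2 and 3 of both genotypes and 10.44 to 11.04 on the other arrays. Signal of Y-linked genes, with Xist at 5.63 to 5.76, was present on LPS replicate 1 of the wildtype and on replicate 2 of both knockout groups. The other 9 arrays had Xist at 11.2 to 11.9, against their label. The Arc probe set read 9.21 to 9.62 in wildtype and 7.68 to 8.05 in knockout cells, and the sources used here do not place it within the transcript.

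Markers of dendritic cells were present: 8 of 9 listed genes were measured, with means of 8.25 for Flt3, a growth factor receptor, to 13.4 for H2-Ab1, which presents antigen. On the log2 scale, their summed signal was 14.6 to 14.7 in untreated cells of both genotypes and 14.9 after LPS. The 16 early LPS genes, such as Tnf, responded in both genotypes, with 14 called higher in wildtype and all 16 in knockout cells, and with median log2 changes of 2.71 and 3.398. Markers of other cell types moved with LPS as well. The log2 summed signal of 4 monocyte markers was 12.6 to 12.7 in untreated and 11.04 to 11.51 in LPS-treated wildtype cells, and 12.5 to 12.6 and 10.8 to 11.3 in knockout cells. For 8 neutrophil markers it was 12.7 and 10.8 to 11.7 in wildtype cells, and 12.2 to 12.7 and 10.9 to 11.5 in knockout cells. Of these lists, 1 of 4 monocyte and 1 of 8 neutrophil markers fell in wildtype cells, and 3 and 5 fell in knockout cells, among them Ccr2, Chil3, S100a8 and S100a9. None of 7 macrophage, 5 mast cell and basophil, 3 B cell and 5 T and NK cell markers passed, with means of 6.25 to 6.44 for the B cell and 5.41 to 8.16 for the T and NK cell markers, the highest being Cd8a and the T cell marker Cd3e at 5.89. The macrophage markers had means of 8.865 to 11.27. Their log2 summed signal was 13.17 to 13.19 in untreated and 12.84 to 12.93 in LPS-treated wildtype cells. In knockout cells it was 12.96 to 13.28 and 12.33 to 13.24. The mast cell and basophil markers lay at 5.81 to 9.76, with Kit the highest and Cpa3 at 8.09. Of 3 eosinophil markers Prg2 fell in both genotypes, and of 4 fibroblast markers Lum fell in knockout cells. The part of other cell types in the changes of the Zfp genes was not tested. In bulk samples, fewer cells of a type and less RNA per cell cannot be told apart.

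Most members were of moderate level. Their means over the arrays ran from 7.004 to 11.1, with a median of 7.76 and a middle range of 7.29 to 8.43. The highest was Zfp207, whose protein acts at kinetochores and the spindle, at 11.1, followed by Zfp992 at 10.3, Zfp62 at 10.2, Zfp106 at 10.2 and Zfp622, a factor of ribosome maturation, at 10.2. Just inside the threshold were Zfp648 at 7.004, Zfp407 at 7.007 and Zfp532 at 7.008. Just outside it were Zfp202 at 6.993, Zfp781 at 6.992 and Zfp937 at 6.985. These signals come from different probes, so their order is one of probe signal and not of transcript number.

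After LPS, the median Zfp gene sat lower in both genotypes, with the lower median in knockout cells. The median log2 change over the members was -0.09 in wildtype cells, with quartiles of -0.34 and 0.12, and -0.24 in knockout cells, with quartiles of -0.52 and -0.03. The median over all genes was -0.01 and 0.00, and over the 10172 genes with a mean of 7 or more it was 0.04 and -0.10. In wildtype cells 118 members (59.9%) had a log2 change below zero, and in knockout cells 152 (77.2%), against 42.5% and 64.8% of genes with a mean of 7 or more. The change was below zero in both genotypes for 113 members and above zero in both for 40. A change of -0.5 or below was measured for 27 members (13.7%) in wildtype and 53 (26.9%) in knockout cells, against 4.61% and 4.46% of all genes. Of the 10172 genes with a mean of 7 or more, 398 and 781 had such a change. A change of 0.5 or above was measured for 9 members (4.57%) and 3 (1.52%), against 4.65% and 3.92% of all genes and 879 and 621 of those 10172. The shift of the family was thus small beside the changes of its leading members.

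At an adjusted p under 0.05 in limma with Benjamini-Hochberg adjustment over all genes, 7 members fell and 2 rose in wildtype cells. That is 3.55% of the members lower, where 0.234% of all genes and 0.246% of genes with a mean of 7 or more were lower. In the other direction 1.02% of the members were called, against 1.34% of all genes and 2.79% of genes with a mean of 7 or more. In knockout cells 47 members fell and 3 rose, or 23.9% and 1.52%. Of all genes, 2.93% were lower and 2.98% higher, and of genes with a mean of 7 or more 5.28% were lower and 5.57% higher. For the mean of both genotypes, 43 members were lower and 5 higher, against 2.28% and 3.94% of all genes. Of genes with a mean of 7 or more, 3.95% and 7.75% were. Because the family was chosen by its change after LPS, nothing is read from the distance to these backgrounds.

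With 12 separate samples, 31 members (15.7%) were lower and 10 (5.08%) higher in wildtype cells, where 3.26% and 5.39% of all genes were. Of the 10172 genes with a mean of 7 or more, 328 were lower and 1077 higher there. In knockout cells 62 members (31.5%) were lower and 4 (2.03%) higher, against 5.18% and 3.93% of all genes and 978 and 705 of those 10172. With the untreated wildtype arrays counted as 1 sample, the wildtype comparison was the less precise. Its median standard error was 0.179 and its 95% half-interval 0.395 per member, against 0.127 and 0.279 in knockout cells. With 12 separate samples each comparison had 3 arrays per group and the same spread, and the counts still differed. Different counts are no test of different responses, which were tested with the interaction below. The counts that follow have the untreated wildtype mean as 1 sample. In wildtype cells the count was 4 without LPS replicate 1, 3 without replicate 2 and 2 without replicate 3. It was 4 without untreated knockout replicate 1 and 2 without replicate 3 of either knockout group, arrays that enter it only through the shared spread. In knockout cells the count was 25, 31 and 23 without untreated replicate 1, 2 or 3, and 23 without LPS replicate 3. The matching counts over all genes were not taken.

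**Figure D1:**
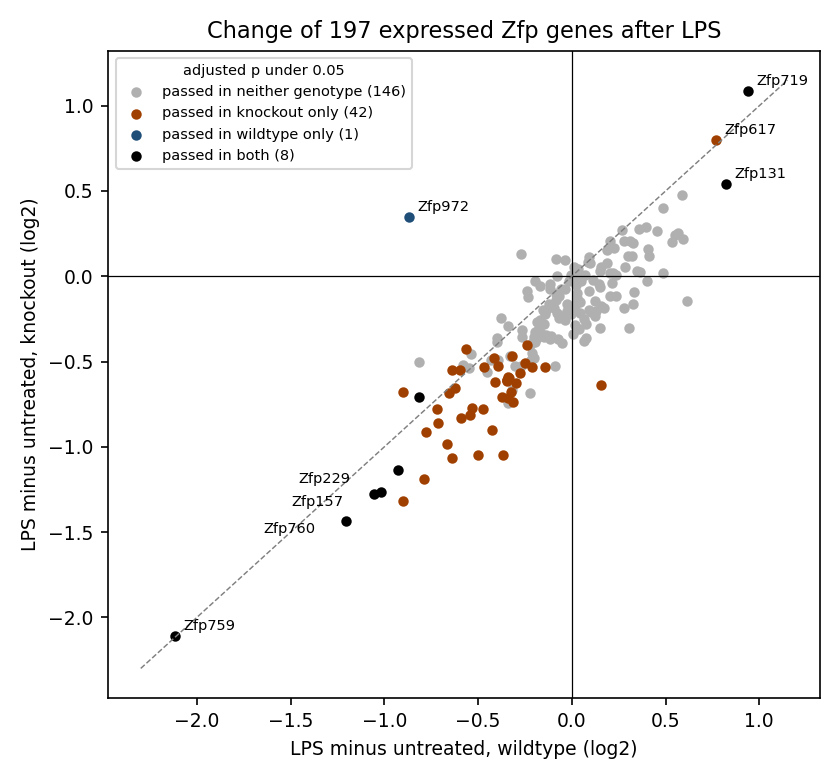
Each point is 1 of the 197 Zfp genes, with its log2 change after LPS in wildtype cells on the horizontal and in knockout cells on the vertical axis; the dashed line marks equal change and colours give where the adjusted p was under 0.05. Zfp759 lies farthest down in both genotypes, 163 members (82.7%) lie below the line, as do 82.8% of all genes with a mean of 7 or more, and Zfp972 is the point that passed only in wildtype cells.

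Of the 7 members that fell in wildtype cells, 6 also fell in knockout cells: Zfp759, Zfp760, Zfp157, Zfp229, Zfp971 and Zfp992. Of the 47 that fell in knockout cells, 46 had a change below zero in wildtype cells. Such overlaps were not counted over all genes called lower, so nothing particular to the family is read from them. The exception among the 47 was Zfp637, with 0.16 in wildtype and -0.64 in knockout cells. The comparisons share no arrays, but they share the estimate of spread, and same-numbered LPS arrays of the genotypes varied together (residual correlations of 0.595, 0.611 and 0.440), so their agreement is not that of independent experiments.

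Zfp759 had the deepest fall of the family in both genotypes. Its log2 signal was 8.48, 8.33 and 8.30 on the untreated wildtype arrays and 6.70, 6.35 and 5.70 after LPS. Knockout cells gave 8.61, 8.24 and 8.35 untreated and 6.16, 6.44 and 6.26 after LPS. No LPS array reached an untreated one, and the gap between the groups was over 1.5 in each genotype. The change was -2.12 (SE 0.306; limma adjusted p = 0.0065) in wildtype and -2.11 (SE 0.216; adjusted p = 0.000289) in knockout cells, or 4.33-fold and 4.32-fold lower signal. After LPS the signal was close to that of probe sets without a gene, whose median per array was 5.89 to 6.10, so the fold change may be compressed.

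Zfp760 had a higher signal that stayed well above the background. It read 9.09, 9.19 and 9.02 on untreated wildtype arrays and 8.10, 7.99 and 7.61 after LPS. The knockout arrays gave 9.43, 9.26 and 9.34 untreated and 7.84, 7.98 and 7.90 after LPS. The LPS arrays lay below all untreated arrays, and the LPS arrays of the genotypes overlapped. The signal fell by 1.20 (SE 0.186; limma adjusted p = 0.00969) in wildtype and by 1.43 (SE 0.132; adjusted p = 0.000148) in knockout cells, 2.30-fold and 2.70-fold.

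Zfp157 showed the same pattern. Its untreated signal was 8.75, 8.56 and 8.62 in wildtype and 8.96, 8.72 and 8.99 in knockout cells. After LPS it was 7.40, 7.75 and 7.61 in wildtype and 7.36, 7.74 and 7.74 in knockout cells. Treated and untreated arrays did not overlap in either genotype. The fall was 2.08-fold (limma adjusted p = 0.0305) in wildtype and 2.42-fold (adjusted p = 0.000518) in knockout cells.

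Zfp229 started lower and ended near the low end of the family. It read 7.32, 7.45 and 7.52 untreated and 6.62, 6.35 and 6.27 after LPS in wildtype cells. The knockout arrays gave 8.02, 7.59 and 7.66 untreated and 6.66, 6.47 and 6.34 after LPS. All treated arrays lay below all untreated arrays. Its signal was 2.02-fold lower in wildtype (limma adjusted p = 0.0435) and 2.40-fold lower in knockout cells (adjusted p = 0.000687).

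Zfp971 and Zfp992 fell by less. Zfp971 read 8.26, 8.36 and 8.29 untreated and 7.50, 7.46 and 7.17 after LPS in wildtype cells, and 8.55, 8.28 and 8.65 against 7.32, 7.53 and 7.22 in knockout cells. Its groups did not overlap, and its signal was 1.90-fold lower in wildtype (limma adjusted p = 0.0484) and 2.20-fold lower in knockout cells (adjusted p = 0.000912). Zfp992, the member of next highest signal after Zfp207, read 10.77, 10.84 and 10.69 untreated and 9.89, 9.99 and 9.99 after LPS in wildtype cells. In knockout cells it read 10.82, 10.49 and 10.77 against 10.15, 9.96 and 9.84. Its treated and untreated arrays were separate in both genotypes, with changes of -0.81 (limma adjusted p = 0.0498) and -0.71 (adjusted p = 0.00755).

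The wildtype calls were the less stable ones. Some settings, such as 12 separate samples, alter the spread and not the estimated change, so the direction was fixed there. Over 28 alternative settings the wildtype call was lost in 2 for Zfp759 and Zfp760, in 8 for Zfp157, in 9 for Zfp719, in 11 for Zfp229, in 12 for Zfp131, in 13 for Zfp972, in 14 for Zfp971 and in 16 for Zfp992, with the direction kept in each. In knockout cells, over 29 settings, the calls of Zfp759, Zfp760, Zfp157, Zfp971 and Zfp719 were never lost, those of Zfp229 and Zfp992 in 1 and that of Zfp131 in 7.

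**Figure D2:**
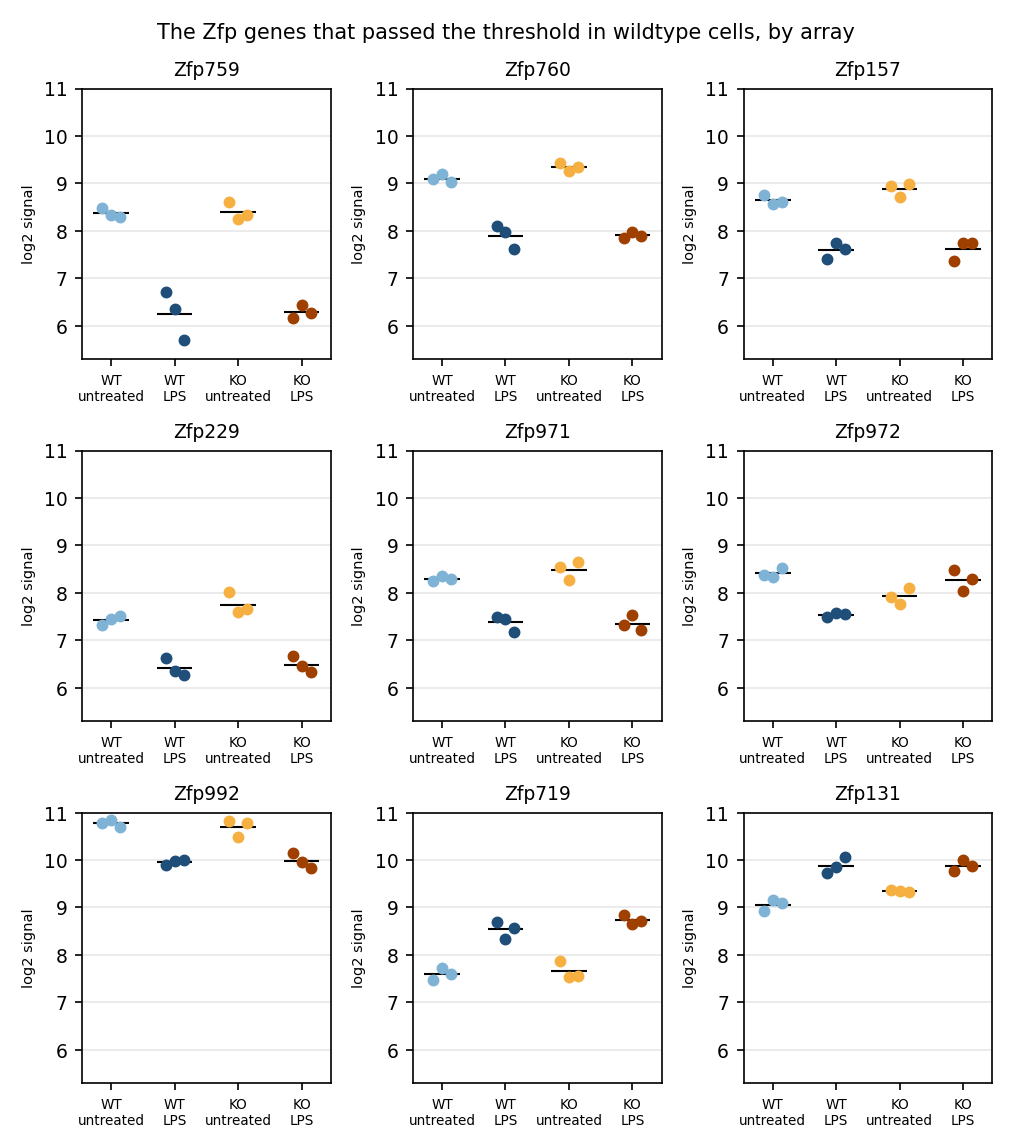
Log2 signal on every array (points) and the mean of each group of 3 arrays (lines) for the 9 Zfp genes with an adjusted p under 0.05 in wildtype cells. Zfp759 drops from above 8 to between 5.70 and 6.70, Zfp719 and Zfp131 stand higher after LPS in both genotypes, and Zfp972 is lower on every LPS array of wildtype cells while its knockout arrays overlap.

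The promoters of the 3 genes that led the fall over both genotypes, and of Zfp719, which led the rises, are printed to show the sequence just upstream of each. They are RefSeq sequences of build GRCm38.p6, from 250 bases before to 50 after the start of the gene, 5′ to 3′ on the coding strand. Zfp759 is at chr13:67127978-67128277, Zfp760 at chr17:21707491-21707790, Zfp157 at chr5:138441226-138441525 and Zfp719 at chr7:43579336-43579635, all on the plus strand. The sources used here do not name the build behind the array's design. Capitals mark matches, on either strand, to the CCAAT box (CCAAT, or ATTGG where it lies on the other strand), the ETS core (CCGGAAG) and the AP-1 site (TGANTCA).
Zfp759: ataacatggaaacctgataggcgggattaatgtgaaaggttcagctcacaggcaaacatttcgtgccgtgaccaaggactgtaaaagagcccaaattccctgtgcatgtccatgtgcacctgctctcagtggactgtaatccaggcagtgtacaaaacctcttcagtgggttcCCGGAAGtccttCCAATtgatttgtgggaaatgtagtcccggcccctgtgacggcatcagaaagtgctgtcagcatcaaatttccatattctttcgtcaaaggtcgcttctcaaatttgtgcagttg
Zfp760: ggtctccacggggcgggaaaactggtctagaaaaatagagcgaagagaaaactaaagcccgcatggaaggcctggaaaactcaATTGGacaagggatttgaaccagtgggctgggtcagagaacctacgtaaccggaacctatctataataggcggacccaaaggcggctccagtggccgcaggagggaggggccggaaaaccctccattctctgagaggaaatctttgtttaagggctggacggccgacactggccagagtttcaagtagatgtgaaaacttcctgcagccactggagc
Zfp157: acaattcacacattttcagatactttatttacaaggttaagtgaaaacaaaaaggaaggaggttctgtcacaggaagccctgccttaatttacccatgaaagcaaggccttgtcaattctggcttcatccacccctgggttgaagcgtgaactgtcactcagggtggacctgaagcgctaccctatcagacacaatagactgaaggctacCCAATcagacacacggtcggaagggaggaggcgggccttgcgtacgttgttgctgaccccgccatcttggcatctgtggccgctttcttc
Zfp719: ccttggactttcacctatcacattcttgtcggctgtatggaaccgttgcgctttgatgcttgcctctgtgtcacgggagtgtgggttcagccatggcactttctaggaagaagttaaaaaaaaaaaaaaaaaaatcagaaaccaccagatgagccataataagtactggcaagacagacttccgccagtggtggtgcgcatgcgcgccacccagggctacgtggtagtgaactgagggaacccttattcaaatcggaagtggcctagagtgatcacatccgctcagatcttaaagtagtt
Zfp759 held 1 ETS core and 1 CCAAT box a few bases apart, Zfp760 and Zfp157 held 1 CCAAT box each, and Zfp719 held none of these letters in this window.

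Promoters were found for 164 of the 197 members, 198 promoters in all because some genes have several. The CCAAT box was in 49.0% of them, against 37.4% of all 32851 promoters of the same length. It was in 31 of the 43 promoters (72.1%) of members that fell in knockout cells and in 66 of the 155 (42.6%) of other members. The ETS core was in 21.2% of member promoters and 8.86% of all promoters, and in 20.9% of those of members that fell against 21.3% of the others. The AP-1 site was in 5.05% of member promoters and 7.81% of all. The element bound by ZNF143 was in 3.03% against 0.277%, the palindrome of TCTCG and its reverse complement in 0.505% against 0.466%, and the NF-kB site of the kappa enhancer in 0 of 198 against 0.155%. Base composition also varied, without a test: the median GC content was 53.3% for members that fell, 58.3% for the other members and 52.7% for all promoters, with medians of 12, 18 and 7 CpG sites. These shares are descriptions of letters, and whether a factor binds was not measured.

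In knockout cells 10 members fell by 1 or more on the log2 scale, as did 91 of all 22180 genes. Of the 10172 genes with a mean of 7 or more, 62 did. The members were Zfp759, Zfp760, Zfp157, Zfp229 and Zfp971, and also Zfp930, Zfp949, Zfp825, Zfp81 and Zfp128, which did not pass in wildtype cells. Zfp930 read 8.21, 8.23 and 8.04 untreated and 6.94, 6.96 and 6.62 after LPS, a change of -1.32 (limma adjusted p = 0.00201). Its wildtype arrays, 7.91, 7.66 and 7.68 against 7.31, 6.65 and 6.59, did not overlap either, with a change of -0.90 that did not pass (adjusted p = 0.16). Zfp949 read 8.65, 8.35 and 8.75 against 7.15, 7.55 and 7.49 in knockout cells, a change of -1.19 (adjusted p = 0.00104). The LPS arrays were all lower, as they were in wildtype cells, where the change was -0.79 (adjusted p = 0.124). Zfp825 read 9.43, 9.05 and 8.95 against 8.17, 8.19 and 7.87, with no overlap and a change of -1.07 (adjusted p = 0.00509), beside -0.64 in wildtype cells (adjusted p = 0.368).

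Zfp81 and Zfp128 had the widest gap between genotypes among these. Zfp81 read 8.20, 8.23 and 8.12 untreated and 7.18, 7.02 and 7.21 after LPS in knockout cells, and 7.74, 7.84 and 7.88 against 7.33, 7.38 and 7.26 in wildtype cells. The untreated knockout arrays were the highest of the 12 and the treated knockout arrays the lowest. Its change was -1.05 (limma adjusted p = 0.000173) in knockout and -0.50 (adjusted p = 0.147) in wildtype cells. Zfp128 read 7.74, 7.85 and 7.95 against 6.67, 6.76 and 6.95 in knockout cells, and 7.35, 7.41 and 7.35 against 7.10, 6.86 and 7.05 in wildtype cells. Its change was -1.05 (limma adjusted p = 0.000502) and -0.37 (adjusted p = 0.497). The differences between genotypes are tested below with the interaction.

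The other members that fell in knockout cells had changes of -0.40 to -0.98. By size these were Zfp808 (-0.98), Zfp120, Zfp141, Zfp931, Zfp266, Zfp90, Zfp709, Zfp189, Zfp39, Zfp467, Zfp606, Zfp472, Zfp992, Zfp935, Zfp960, Zfp563, Zfp984, Zfp637, Zfp287, Zfp235, Zfp292, Zfp324, Zfp652, Zfp950, Zfp74, Zfp810, Zfp790, Zfp994, Zfp282, Zfp799, Zfp846, Zfp638, Zfp160, Zfp386, Zfp24, Zfp983 and Zfp110 (-0.40). Zfp266, a member of high signal with a mean of 9.56, read 9.98, 9.92 and 9.92 untreated and 9.16, 9.13 and 9.04 after LPS in knockout cells, and 9.93, 9.91 and 9.86 against 9.46, 9.31 and 9.16 in wildtype cells. Its arrays were separate in both genotypes, with changes of -0.83 (limma adjusted p = 0.00116) and -0.59 (adjusted p = 0.0961). For Zfp90 a second probe set of lower signal (mean 6.57) had a change of 0.05 in knockout cells, and for Zfp799 one of mean 5.67 had 0.08. The falls of these genes rest on the probe set used. Among the 13 members with more than 1 probe set, those of Zfp330 differed most: the probe set used, of mean 9.26, had 0.55 in wildtype cells, and another, of mean 8.88, had -0.50.

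The fall was not general, and 3 members rose. Zfp719 read 7.46, 7.72 and 7.61 untreated and 8.70, 8.34 and 8.57 after LPS in wildtype cells, and 7.88, 7.54 and 7.55 against 8.84, 8.65 and 8.72 in knockout cells. All treated arrays were above all untreated arrays. Its signal was 1.92-fold higher in wildtype (limma adjusted p = 0.0368) and 2.12-fold higher in knockout cells (adjusted p = 0.000868). Zfp131, which joins a BTB domain to its zinc fingers, read 8.92, 9.17 and 9.09 against 9.72, 9.86 and 10.07 in wildtype cells, and 9.36, 9.34 and 9.32 against 9.77, 10.01 and 9.86 in knockout cells. The groups did not overlap, and the signal was 1.77-fold (limma adjusted p = 0.0378) and 1.46-fold higher (adjusted p = 0.0218). Zfp617 read 9.16, 8.97 and 9.03 against 10.07, 9.54 and 9.95 in knockout cells, a rise of 0.80 (limma adjusted p = 0.0196). Its wildtype arrays, 8.91, 8.88 and 8.66 against 9.80, 9.26 and 9.70, were separate too, with a change of 0.77 that did not pass (adjusted p = 0.202). For Zfp36, the mRNA decay factor left out of the family, the change was 0.66 in wildtype (adjusted p = 0.103) and 0.59 in knockout cells (adjusted p = 0.0168).

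Of 10 members of known role, chosen after their values were seen, Zfp638, Zfp24 and Zfp292 fell in knockout cells and Zfp131 rose in both genotypes. Zfp366, which encodes the dendritic cell protein DC-SCRIPT, had a mean of 9.78 and changes of -0.38 (limma adjusted p = 0.501) and -0.24 (adjusted p = 0.289). Zfp809, which directs silencing of retroviral elements, had changes of 0.15 and 0.03, and Zfp598, a ubiquitin ligase that senses collided ribosomes, had 0.07 and 0.01. Zfp638, which takes part in silencing of unintegrated retroviral DNA, fell in knockout cells by 0.52 (adjusted p = 0.0273) and had -0.40 in wildtype cells (adjusted p = 0.453). Zfp24, a SCAN domain protein, fell in knockout cells by 0.47 (adjusted p = 0.0265), and Zfp292 by 0.61 (adjusted p = 0.0122). For the factors of GC-rich DNA, Zfp148 and Zfp281, the changes were -0.14 and 0.14 in wildtype and -0.34 and -0.05 in knockout cells, and neither passed. Of the members of highest signal, Zfp992 passed, while Zfp207 (-0.08 and -0.14), Zfp62 (0.22 and 0.17), Zfp106 (-0.01 and -0.20) and Zfp622 (0.40 and 0.29) did not.

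Array by array, every LPS array lay below the untreated arrays for 69 members in wildtype cells (35.0%), 99 in knockout cells (50.3%) and 58 in both (29.4%). Over all genes these shares were 13.9%, 14.8% and 4.86%, and, the family being chosen on this contrast, nothing is read from the distance. Every LPS array lay above the untreated arrays for 35 members in wildtype, 10 in knockout and 9 in both, and for 16.2%, 10.3% and 5.6% of all genes. Relative to each member's own mean, the median of the family was 0.02, 0.05 and 0.02 on the untreated wildtype arrays and -0.04, -0.08 and -0.09 after LPS. In knockout cells it was 0.13, 0.12 and 0.20 untreated and -0.13, -0.08 and -0.09 after LPS. The treated arrays of both genotypes overlapped, and the untreated knockout arrays were the highest of all. The same median over all genes with a mean of 7 or more was also highest on untreated knockout arrays, at 0.03, 0.08 and 0.08, along with 0.05 on LPS replicate 2 of the knockout. Among the LPS arrays, replicates 2 and 3, those of low small RNA signal, were lower than replicate 1 in wildtype cells, while in knockout cells replicate 1 was the lowest.

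**Figure D3:**
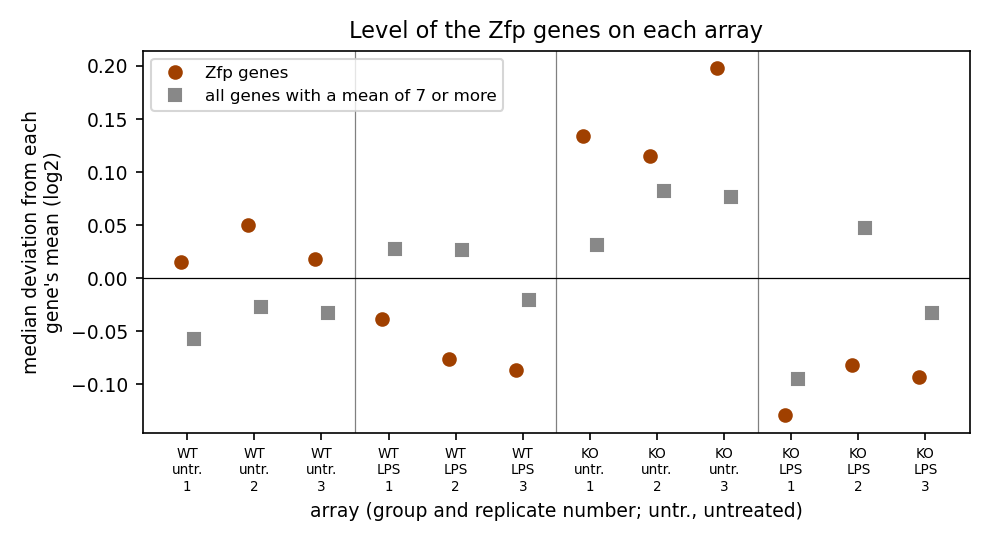
Median deviation from each gene's own mean (log2) on each of the 12 arrays, for the 197 Zfp genes (circles) and for all genes with a mean of 7 or more (squares). The Zfp genes are above zero on all 6 untreated arrays and below zero on all 6 LPS arrays, and their highest value, 0.20, is on untreated knockout replicate 3.

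Without the 4 LPS arrays of low small RNA signal, which leaves 1 LPS array per genotype and a spread estimated from the 3 untreated knockout arrays alone, 0 members fell in wildtype (limma, with 24 lower at an unadjusted p under 0.05) and 15 in knockout cells, with median changes of -0.05 and -0.28. With a term for these arrays the counts were 5 and 38. Without the arrays with Y-linked signal they were 7 and 40, and with a term for that signal 3 and 45. The share of all genes called was not taken under these settings.

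The change in knockout cells was spread over all levels of signal. Of 117 members with means of 7 to 8, 29 (24.8%) fell in knockout cells, of 50 at 8 to 9 it was 10 (20.0%), of 22 at 9 to 10 it was 5 (22.7%), and of 8 at 10 or more it was 3 (37.5%). The share of all genes in these levels that were lower was 5.63%, 6.55%, 5.17% and 2.60%. The median change was -0.28, -0.18, -0.22 and -0.17 in knockout cells and -0.12, -0.04, -0.08 and -0.05 in wildtype cells. Only 2 members had an LPS mean under 6.5 in each genotype.

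Some neighbouring members moved together, and others moved in opposite directions. In the RefSeq order of protein-coding genes, 196 members were placed, and 55 of them stood next to another member, in 24 runs of up to 3 genes. Zfp760 and Zfp229 were neighbours and both fell in both genotypes, and Zfp971 stood next to Zfp931, which had changes of -0.72 in wildtype (adjusted p = 0.334) and -0.86 in knockout cells (limma adjusted p = 0.0226). Zfp266 and its neighbour Zfp846 both fell in knockout cells, as did Zfp110 and Zfp128. In other pairs 1 gene passed and its neighbour had a smaller change of the same sign that did not: Zfp719 rose and Zfp819 beside it had 0.33 and 0.19, and Zfp81 fell in knockout cells and Zfp101 had -0.40 and -0.39. In further pairs the neighbour had a change of the other sign. Zfp983 fell in knockout cells and Zfp948 had 0.41 in wildtype and 0.12 in knockout cells. Zfp74 fell in knockout cells and Zfp568 had 0.53 and 0.20. No difference between neighbours was tested. As a whole, 15 of the 55 members beside another member fell in knockout cells (27.3%) and 32 of the 141 others (22.7%). Counting any Zfp gene as a neighbour, expressed or not, 30 of 95 (31.6%) fell beside one and 17 of 101 (16.8%) away from one, with median changes in knockout cells of -0.33 and -0.19. Neighbours can share sequence, and detection of 1 gene by the probes of another was not tested.

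The genotype comparisons asked whether loss of Arc altered these genes. The choice of the family did not use them directly, but they rest on the same arrays as the fall after LPS that it used. Neither without LPS, nor after LPS, nor over both treatments did any of the 197 members pass in limma, where 0.00451%, 0.00902% and 0.0135% of all genes did. At an unadjusted p under 0.05 there were 6 members without LPS (3.05%; 5 higher and 1 lower in knockout), 4 after LPS (2.03%; 2 and 2) and 2 over both (1.02%; both higher). Of all genes, 4.04%, 3.95% and 3.3% had such a p. Among the 10172 genes with a mean of 7 or more, 116 were higher and 83 lower in knockout without LPS. After LPS these were 47 and 114, and over both 106 and 63. With 12 separate samples, also in limma, none passed and 41 members (20.8%), 6 (3.05%) and 18 (9.14%) had an unadjusted p under 0.05, against 15.4%, 4.72% and 8.5% of all genes. For the 10172 genes with a mean of 7 or more the numbers were 1419, 253 and 629. Among the alternatives run, a member passed in 2: Zfp128 without LPS when the replicate number was a random block (limma adjusted p = 0.0461), and Zfp972 after LPS with array weights (adjusted p = 0.0282). The median log2 difference of knockout and wildtype over the members was 0.14 without LPS, -0.02 after LPS and 0.06 over both, and that of genes with a mean of 7 or more was 0.12 without LPS. The smallest p without LPS belonged to Zfp787, higher by 0.53 in knockout (unadjusted p = 0.0132; limma adjusted p = 0.97). After LPS, Zfp637 had -0.49 (unadjusted p = 0.00807) and Zfp747 -0.40 (unadjusted p = 0.024), and over both treatments Zfp931 had 0.38 (unadjusted p = 0.0378), Zfp994 0.24 (unadjusted p = 0.0381) and Zfp27 -0.18 (unadjusted p = 0.0568) in limma, none passing adjustment.

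Whether the response to LPS differed between genotypes was tested with the interaction, and no member passed (0% of all genes did). At an unadjusted p under 0.05 in limma there were 9 members (4.57%), 8 of them with the lower change in knockout cells, against 4.43% of all genes. Of all genes with such a p, 217 had the lower change in knockout cells and 765 the higher. Among the 10172 genes with a mean of 7 or more, 123 had the lower and 78 the higher change. The knockout change was below the wildtype change in 163 of 197 members (82.7%), with a median difference of -0.18 and a median 95% half-interval of 0.484 per member. The same held for 82.8% of all genes with a mean of 7 or more, whose median difference was -0.16, so in sign and median the members lay close to this background. Zfp128 had an interaction of -0.68 (unadjusted p = 0.00653; limma adjusted p = 0.673) and Zfp81 of -0.55 (unadjusted p = 0.00863; adjusted p = 0.749).

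Zfp972 had the smallest p of the interaction among the members. In wildtype cells it read 8.37, 8.34 and 8.52 untreated and 7.50, 7.57 and 7.56 after LPS. In knockout cells it read 7.91, 7.76 and 8.10 untreated and 8.48, 8.04 and 8.29 after LPS. The wildtype arrays were fully separate, and the knockout arrays overlapped with the treated ones mostly higher. It fell 1.83-fold in wildtype cells (limma adjusted p = 0.0485), and its change in knockout cells was 0.35 (adjusted p = 0.17). The interaction was 1.22 (SE 0.228; unadjusted p = 0.000269), which did not pass over all genes (limma adjusted p = 0.397). With 12 separate samples its adjusted p was 0.0351, and it passed in 5 of 26 alternative settings. Over these 26 its size ran from 1.11 to 1.46 and its adjusted p from 0.00654 to 0.903. After LPS the signal was 0.73 higher in knockout cells (unadjusted p = 0.000198; limma adjusted p = 0.55) and without LPS 0.49 lower (unadjusted p = 0.0247; adjusted p = 0.97).

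Other zinc finger families, taken at the same level of 7 or more, and the corepressors of KRAB proteins give the setting. Of 12 Zscan and Zkscan genes, C2H2 proteins with a SCAN domain, none passed in wildtype cells and 4 fell in knockout cells: Zkscan8 (-0.93), Zkscan7 (-0.70), Zscan26 (-0.60) and Zkscan1 (-0.37). Their medians were -0.08 and -0.33. Of 29 Zbtb genes, which carry a BTB domain, 4 rose in wildtype cells and 3 in knockout cells while 1 fell there, with medians of 0.14 and -0.09. Zbtb10 rose by 2.00 and 1.51 and Zbtb46, a dendritic cell marker, by 0.88 and 0.67. Of 14 Klf genes, 1 rose in each genotype, Klf7, by 0.95 and 0.82, with medians of 0.20 and 0.13. Of 31 Zdhhc and Zc3h genes, zinc proteins outside the C2H2 class, 2 rose in each genotype, Zc3h12a by 1.53 and 1.42 and Zc3h12c by 1.48 and 1.43, and 2 fell in knockout cells, Zc3h12d (-0.78) and Zc3h6 (-0.69). The medians were 0.08 and -0.07. No difference between these families and the Zfp genes was tested.

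**Figure D4:**
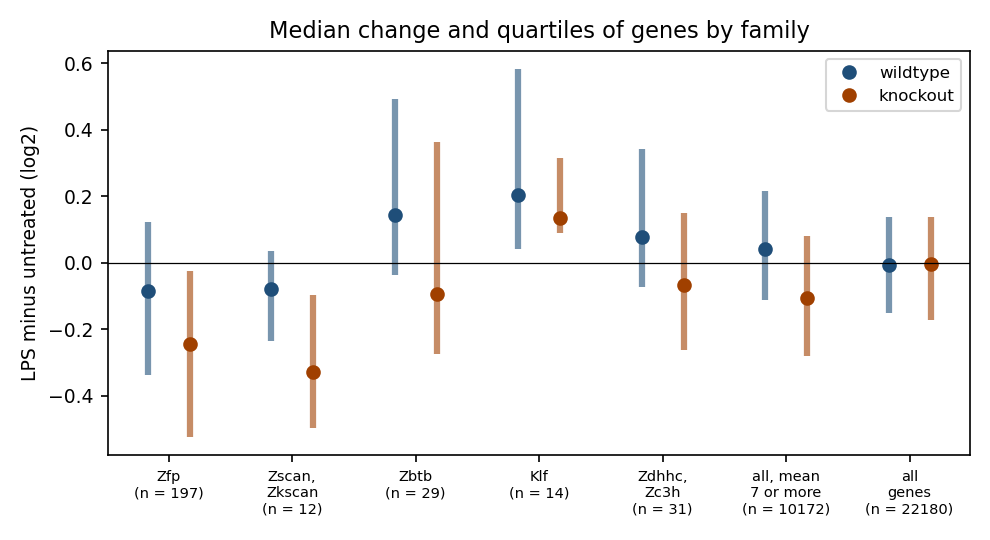
Median log2 change after LPS (points) and the range from the lower to the upper quartile (bars) in wildtype and knockout cells, for the Zfp genes, 4 other zinc finger groups and all genes. The Zfp genes (-0.09 and -0.24) and the Zscan and Zkscan genes (-0.08 and -0.33) lie below zero in both genotypes, and the Klf genes (0.20 and 0.13) above it.

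The 25 symbols listed for partners of KRAB repression include Fam208a and Tasor, names of the same gene, which was measured as Tasor. Of these symbols 21 were measured. None passed in wildtype cells, and 3 fell in knockout cells: Atf7ip, which stabilises SETDB1, by 0.65 (limma adjusted p = 0.00846), Morc3, by 0.63 (adjusted p = 0.00966), and the histone methyltransferase gene Ehmt2, by 0.45 (adjusted p = 0.0391). Their medians were -0.08 and -0.32. Trim28 itself had changes of 0.09 (adjusted p = 0.98) and -0.14 (adjusted p = 0.619). Setdb1 had -0.05 (limma adjusted p = 0.992) and -0.43 (adjusted p = 0.157), with every LPS array below the untreated ones in knockout cells only. In knockout cells 2.93% of all genes and 5.28% of genes with a mean of 7 or more were called lower.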

How the data were processed

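The authors deposited 1 log2 signal per probe set and array, 34390 probe sets on 12 arrays, already summarised. The sources used here do not give the background correction or the normalization. The submitters' processing notes name limma alone, with no version. Probe sets with several genes (1814) or none (9055) were left out, and the probe set of highest mean stood for a gene. All 197 members were found in the RefSeq gene table of GRCm38.p6. On arrays, their number limits the precision.

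Group means were fitted to the deposited log2 values with limma (version 3.58.1, R version 4.3.3) and contrasts were tested two-sided after eBayes. P-values were adjusted by Benjamini-Hochberg over 22180 genes, with a threshold of 0.05. The untreated wildtype arrays entered as their mean, which leaves 10 samples and 6 residual degrees of freedom; that lone sample is assumed to vary like the other groups. No filter on low signal was applied.

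The members, gene lists, tests and alternatives were chosen with earlier results of these data known. The genes named are, per LPS contrast, up to 10 members with the largest fall and 5 with the largest rise past the threshold, the 5 of highest mean, 3 on each side of the level threshold, the 3 with the smallest p per genotype contrast and interaction, and up to 4 per gene list. Members of known role, neighbours, probe sets that disagree, Zfp266, Trim28, Setdb1 and the full list of falls were added after values were seen.

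Pairing by replicate number was checked on residuals of genes with a mean of 7 or more. Correlations were 0.583, 0.518 and 0.515 between untreated and LPS-treated knockout arrays and 0.595, 0.611 and 0.440 between the LPS groups, so numbers pair these, from the data and not the labels. Correlations were -0.03, 0.05 and -0.02 between the wildtype groups and 0.02, -0.02 and -0.01 between the untreated groups, whose same-numbered arrays did not vary together. Alternatives were replicate blocks, 12 samples, scalings, filters, probe set choices, array weights, terms for small RNA and Y-linked signal, member thresholds and leaving out each array.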

Additional observations from a re-analysis of the deposited data

How the results depend on the processing

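The 9 members called in wildtype and the 50 called in knockout cells kept their direction in each alternative fit in which they were tested, as did the called genes of the other lists (25 and 44). Of these members 0 and 12 also passed throughout. The calls came from these same arrays, and many alternatives, such as 12 samples or replicate blocks, leave the estimated change as it was. The kept direction was therefore largely fixed in advance. Members lower in wildtype cells numbered 31 with 12 samples, 33 with array weights (whose estimation stopped before convergence), 2 with all probe sets, 3 with a Y-linked term, and 0 both in a fit of only the groups compared and without the arrays of low small RNA signal (limma, with 30 and 24 lower at an unadjusted p under 0.05). Lower in knockout cells were 87 with array weights and 15 without the arrays of low small RNA signal, and lower in the mean of both genotypes 72 with 12 samples, 85 with array weights and 20 without those arrays. With members of mean 8 or more these counts were 4, 18 and 16. Adjusting only over genes with a mean of 7 or more, chosen after seeing the data, gave 10 and 63. With 12 samples, 722, 1149 and 1631 of all 22180 genes were lower in wildtype, in knockout cells and in the mean of both. For most other alternatives, here and below, the share of all genes called was not taken. A count that moved is therefore not read as a change of the family.

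With the replicate block and 12 arrays, members lower numbered 38 in wildtype, 67 in knockout cells and 76 in the mean of both; as a random block, 34, 68 and 77. A knockout fit with the replicate block alone, added after seeing the data, gave 44. The interaction passed for 1 member with 12 samples, with either block, with array weights and without knockout LPS replicate 2. The genotype difference passed for 1 member untreated with the random block (Zfp128) and for 1 after LPS with array weights (Zfp972).

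The median change was -0.048 in wildtype and -0.275 in knockout cells without the arrays of low small RNA signal, -0.044 and -0.196 with members of mean 8 or more, -0.037 and -0.200 with members taken from the LPS arrays and -0.14 and -0.30 from the untreated arrays. In knockout cells it was -0.20 after quantile normalization, -0.23 with the mean of probe sets and -0.22 with members of 6.5 or more. Leaving out each array gave 2 to 8 members lower in wildtype cells, 23 to 48 in knockout cells, 31 to 46 in the mean of both, 0 to 1 for the interaction, and medians of -0.10 to -0.07 and -0.27 to -0.20. Of the named genes' values under alternatives, 840 stayed on their side of the threshold, 100 lost it and 7 gained it. The 840 include genotype and interaction values that had not passed to begin with. They therefore overstate how stable the calls after LPS were.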
